A study of Mus musculus with 8 samples.

Results

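The DNA replication genes examined here were 44 genes of S phase, the part of the cell cycle in which the genome is copied. They were chosen by name and looked up by symbol among the 55385 genes counted in mouse fetal lung. All 44 symbols were found, each with 1 gene ID, and all 44 had enough reads to be tested. By role they comprised 10 genes of origin licensing, 5 of helicase activation, 7 of the polymerases and primase, 9 of the sliding clamp, its loader and the lagging strand, 4 of nucleotide supply, 4 regulators of S phase entry and 5 of histone and chromatin maintenance.

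Whole lungs came from C57BL/6 mouse fetuses at E18.5, late gestation, and the 2 groups were control and tracheal occlusion (TO), with 4 libraries each. In TO fetuses the trachea was tied at E16.5 by a suture passed through the uterine wall, together with a carotid artery and a jugular vein, and the dams were given progesterone the next day. Occlusion traps the fluid that the fetal lung secretes and stretches the tissue, and the comparison asks which mRNAs differ after that treatment. The ligated vessels and the ligated trachea cannot be told apart in this design, and the sources used here do not say whether controls were operated on or which fetuses shared a dam. The libraries are called control 1 to 4 and TO 1 to 4. The study describes the 6 it shows as coming from different fetuses; nothing used here says so for control 3 and TO 1, so p-values that include these may measure only the spread between samples. Depth was 22822261, 30768440, 32382284 and 24511486 read pairs on genes in control 1 to 4. In TO 1 to 4 it was 270078, 35002061, 24494782 and 34390241.

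TO 1 was thus far shallower than the other 7 libraries. Levels are given as CPM, read pairs per 1000000 after TMM scaling, and in TO 1 a single pair was worth 3.43 CPM and a count of 0 allowed up to 10.3 CPM (3 pairs). The 44 genes had 0 to 61 pairs each there, 9 of them fewer than 5. Such limits cover counting error only, since the reads carried no molecular identifiers.

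Cells copy their DNA from origins that are licensed in G1, when the origin recognition complex, Cdc6 and Cdt1 load the ring of Mcm2 to Mcm7. At the start of S phase Cdc45 and the GINS proteins turn that ring into a moving helicase, and primase, polymerases, the clamp Pcna and the ligase Lig1 build the new strands behind it. Most of these genes are transcribed around the G1/S border under E2F factors and are used as markers of dividing cells, which fetal lung holds in its epithelium, mesenchyme and vessels. In whole tissue, fewer dividing cells and less mRNA per cell cannot be told apart.

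The largest differences in replication mRNA lay between lungs of the same group. The mean log2 CPM over the 44 genes was 5.27, 5.21, 3.42 and 4.92 in control 1 to 4. It was 5.06, 4.77, 4.05 and 5.04 in TO 1 to 4. Control 3 was far below the other controls and TO 3 was the lowest of the TO lungs, and the 2 groups overlapped throughout. Control 3 had the lowest level of the 4 controls for 43 of the 44 genes, against 35.4% of all 22545 genes tested. TO 3 was the lowest of the 3 deeply sequenced TO lungs for 42 of 44, against 32.8% of all genes. Both held for 42 of the 44 genes and for 17.2% of all genes. These counts were chosen after the values were seen and are a description of the libraries. The highest control exceeded the lowest by a median of 3.72-fold over the 44 genes, where the median over 19425 genes with reads in all 4 controls was 1.70-fold and their 90th percentile was 5.52-fold. In TO 2 to 4 the range was narrower, with a median of 1.95-fold over 43 of the 44 genes, against a median of 1.47-fold and a 90th percentile of 4.18-fold over 19945 genes. More than 10% of genes thus ranged more widely than the median replication gene in each group, and these ranges were not tested.

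**Figure D1:**
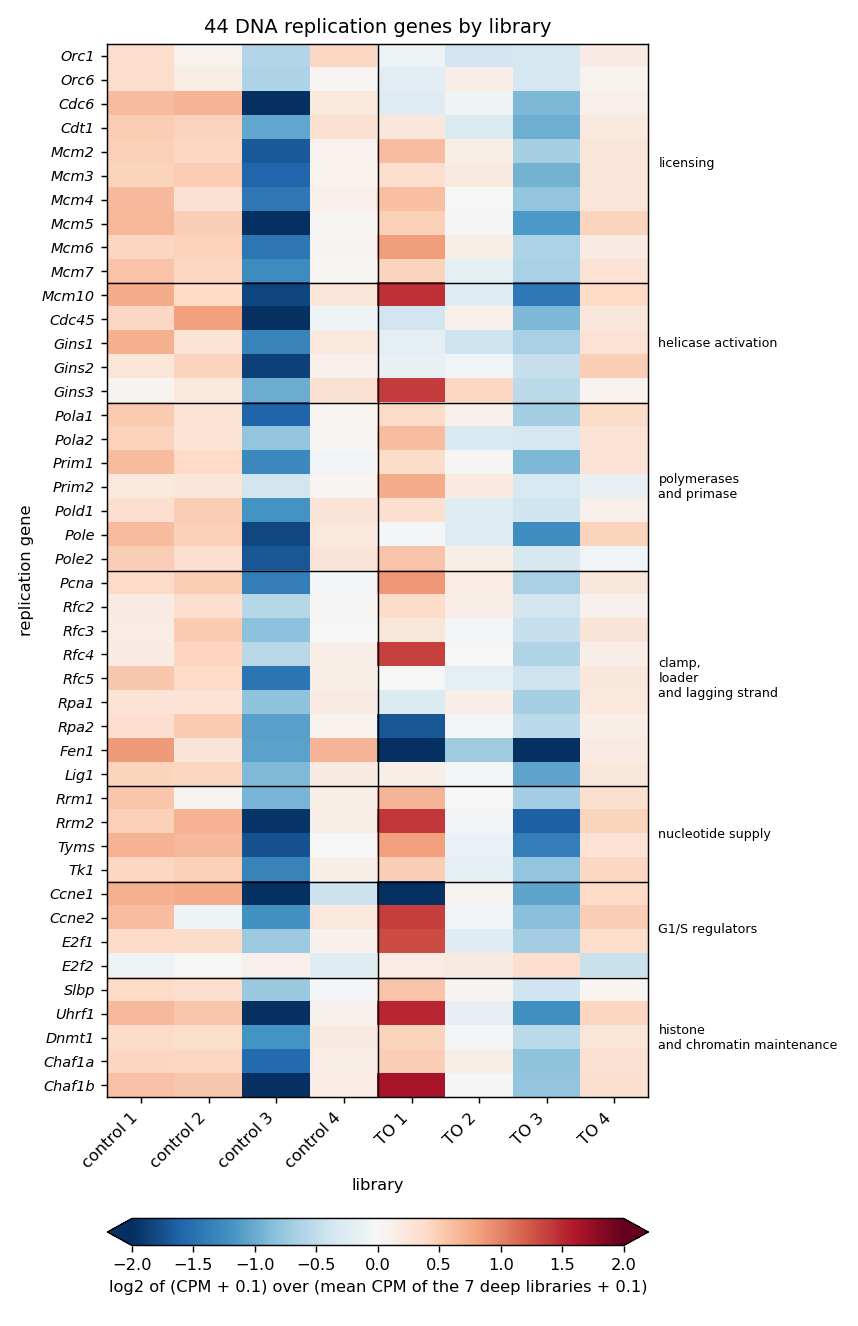
Level of each of the 44 replication genes (rows, grouped by role) in each library (columns), as the log2 of its CPM over its mean in the 7 deep libraries, with 0.1 CPM added to both; blue is lower and red is higher. Control 3 and TO 3 are blue in nearly every row, E2f2 is the row in which neither is, and the TO 1 column rests on 0 to 61 read pairs a gene.

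Against this spread, no replication gene was called between TO and control. With all 8 libraries, edgeR's quasi-likelihood test called 0 of the 44 genes at an adjusted p under 0.1, and 0% of the 22545 genes tested. At an unadjusted p under 0.05 there were 0 of the 44 and 530 of all genes. DESeq2 called 7 genes and limma-voom 0, none of them a replication gene. The edgeR fold change was below 0 for 30 of the 44 genes and for 53.2% of all genes. By mean CPM, which counts the shallow TO 1 like any other library, 20 of those 30 were lower in TO and 10 were higher, and without TO 1 each of these 10 was lower in TO as well. The median log2 fold change was -0.06 over the 44 genes and -0.02 over all genes tested. The TO lungs were entirely below the controls for 0 of the 44 genes, where 1.29% of all genes had that arrangement.

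The direction depended on which lungs were compared. The study itself showed 6 libraries. Its text does not say which, but the specimen names printed in its figure match the deposited names of controls 1, 2 and 4 and TO 2 to 4, so control 3 and TO 1 were not shown. In those 6, 43 of the 44 genes had a fold change below 0, against 50.7% of 21859 genes, and the median log2 fold change was -0.43, against -0.0045 over all genes. The same edgeR test again called 0 of the 44, and 0% of all genes. The study, which used DESeq2 and its own filter, reported that 42 genes passed its threshold. DESeq2 was run here on all 8 libraries only, so the result of 0 for these 6 is that of edgeR alone. By edgeR, 4 of the 44 were lower in TO at an unadjusted p under 0.05, Cdc6, Cdt1, Pold1 and Rfc5, against 2.07% of all genes. All 3 TO lungs were below all 3 controls for 6 of the 44, namely Cdc6, Cdt1, Pold1, Pole2, Rfc4 and Fen1, against 5.82% of all genes. Leaving out control 3 from the 8 libraries gave 42 of 44 genes below 0 and a median of -0.32. Leaving out TO 3 gave 10 of 44 and a median of 0.12, leaving out control 1 gave 13 of 44 and 0.10, and leaving out control 2 gave 15 of 44 and 0.08. With control 3 and TO 3 both left out, a choice made after seeing the data, 34 of 44 were below 0 with a median of -0.11, and 0 genes were called. The sign of the group difference thus changed when single lungs were left out. Replicate numbers shared between control and TO libraries, and a fit that used them, are given in the last section.

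**Figure D2:**
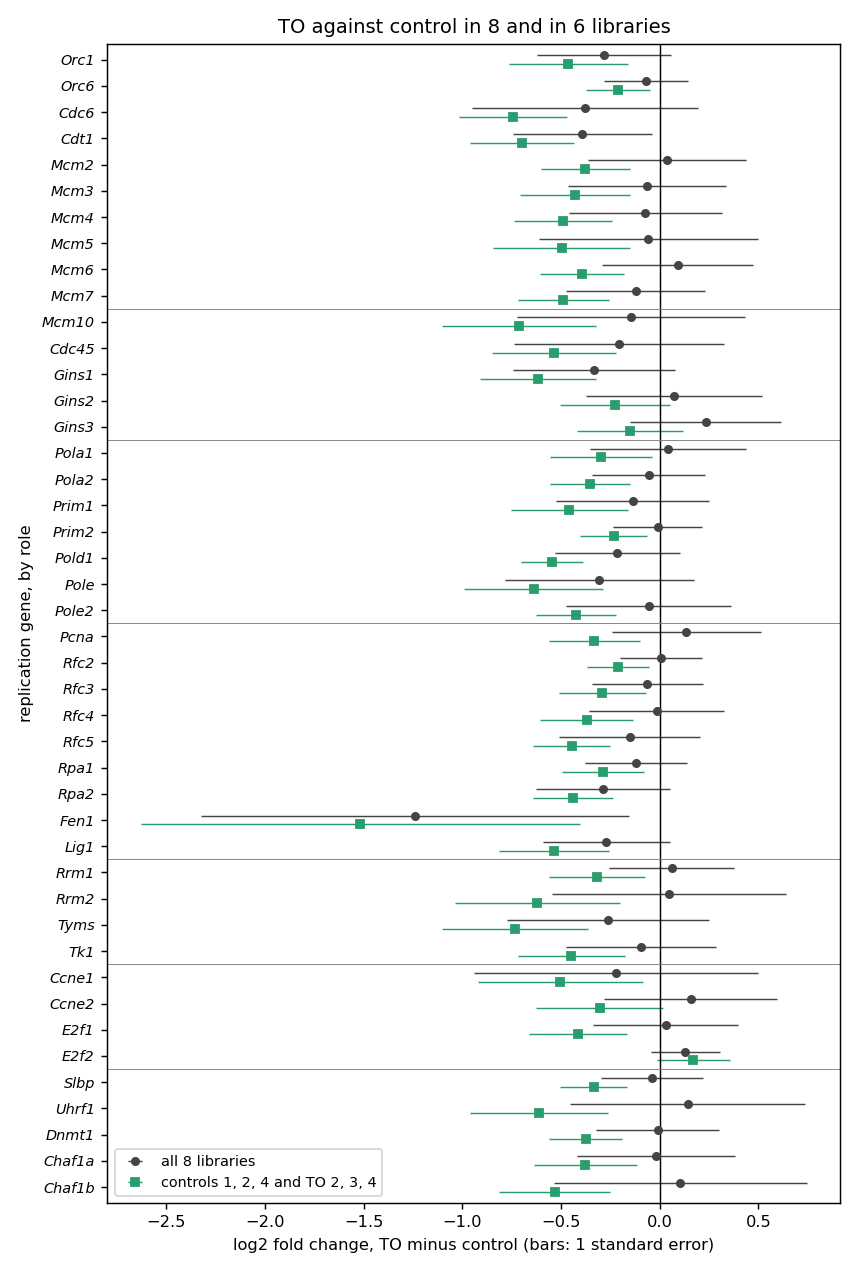
The log2 fold change (TO minus control, x axis) of each replication gene (y axis, ordered by role) in all 8 libraries (circles) and in controls 1, 2 and 4 with TO 2 to 4 (squares), with bars of 1 standard error from edgeR. With 8 libraries 30 of the 44 circles lie below 0 and with 6 libraries 43 of the 44 squares do, E2f2 being the exception.

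Licensing genes place the helicase on origins. The most abundant of them was Mcm6, a subunit of the MCM ring (chr1:128331590-128359664, minus strand, GRCm38). Its level was 159, 162, 43.2 and 122 CPM in control 1 to 4, and 209, 129, 75.3 and 131 CPM in TO 1 to 4. Control 3 and TO 3 were the lowest of their groups, the highest value was that of the shallow TO 1, with 61 pairs, and the groups overlapped. The means were 121 ± 55.2 CPM in controls and 136 ± 55.2 CPM in TO (SD, n = 4 each). The log2 fold change was 0.09 (SE 0.38, 95% interval -0.74 to 0.93, edgeR adjusted p = 0.99999), and in the 6 libraries it was -0.40 (SE 0.21, edgeR adjusted p = 0.907). The interval is for this gene alone, without the adjustment over all genes that a call needed. Differences within the interval of the 8 libraries, and some beyond it, were thus not detectable here.

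The other MCM subunits also had control 3 as the lowest lung and TO 3 as the next. Mcm2 was at 93.6, 90.1, 20.9 and 70.9 CPM in control 1 to 4 and at 103, 73.0, 42.6 and 79.9 CPM in TO 1 to 4. Mcm5 was at 81.7, 72.7, 8.43 and 52.3 CPM in the controls and at 72.1, 52.6, 23.1 and 70.0 CPM in TO. Mcm3, Mcm4 and Mcm7 lay between 79.97 and 116 CPM in controls 1, 2 and 4, and at 26.1, 27.4 and 32.5 CPM in control 3.

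Among the loaders of the ring, the range between controls was wider for Cdc6 than for the origin recognition complex. Cdc6, the ATPase that joins the origin complex before the ring is loaded, was at 19.0, 19.7, 1.64 and 14.2 CPM in control 1 to 4 and at 10.3, 11.7, 6.57 and 13.2 CPM in TO 1 to 4, a 12.0-fold range among controls. Orc6, a subunit of the origin complex, was at 45.9, 39.7, 23.5 and 37.1 CPM in the controls and at 30.9, 39.5, 28.5 and 37.9 CPM in TO, a 1.95-fold range among controls. Cdt1, which escorts the ring to the origin, was at 37.6, 36.4, 12.8 and 32.5 CPM in controls and at 30.9, 21.8, 13.4 and 30.2 CPM in TO. In Cdt1 the values of all 4 TO lungs were below those of controls 1, 2 and 4 and above that of control 3. Orc1 was scarce, with 2.45 to 4.97 CPM over the 8 lungs.

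Because most of the 44 genes, of licensing and of the other roles, were low in the same lungs, their promoters were searched for E2F-type motifs. The motifs were TTTCCCGC, TTTGGCGC, TTTCGCGC and TTTGCCGC, on both strands. The promoters were those of RefSeq for GRCm38.p6 (250 bases before and 50 after the start site). The matches can overlap, because the end of 1 motif can be the start of another read on the opposite strand. Of the 44 genes 37 had an entry, with 45 promoters between them, and 16 genes held a match. That was 35.6% of the members' promoters against 2.26% of all 32851 promoters. The members had been chosen as S phase genes, and this contrast was not tested. By role, 7 of the 9 licensing genes with an entry held a match, and 0 of the 4 nucleotide supply genes did. Mcm4, Gins1, Gins2, Prim2, Pole, Rfc2 and Ccne2 had no entry. The stretches before the start site of 5 licensing genes and of Pola1, a polymerase subunit, are shown as examples with a match upstream of the start, in capitals and read on the strand of the gene. Gins3, Rfc3, Uhrf1 and Dnmt1 also held an upstream match and are not shown.
Orc1: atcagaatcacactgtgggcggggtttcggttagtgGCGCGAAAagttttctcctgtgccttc
Cdc6: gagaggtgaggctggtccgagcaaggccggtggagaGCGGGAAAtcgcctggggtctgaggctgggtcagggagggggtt
Mcm5: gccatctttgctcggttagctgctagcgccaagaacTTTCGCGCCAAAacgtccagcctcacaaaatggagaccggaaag
Mcm6: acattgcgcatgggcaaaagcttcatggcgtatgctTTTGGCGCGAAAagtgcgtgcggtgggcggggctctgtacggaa
Mcm7: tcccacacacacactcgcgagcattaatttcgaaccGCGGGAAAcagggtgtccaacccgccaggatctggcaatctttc
Pola1: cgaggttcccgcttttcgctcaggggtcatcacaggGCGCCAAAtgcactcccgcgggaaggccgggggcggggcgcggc
These lie at chr4:108579391-108579453 (Orc1, plus strand), chr11:98907977-98908056 (Cdc6, plus), chr8:75109320-75109399 (Mcm5, plus), chr1:128359772-128359851 (Mcm6, minus), chr5:138172005-138172084 (Mcm7, minus) and chrX:93632250-93632329 (Pola1, minus). In Mcm5 and Mcm6 the capitals cover 2 overlapping matches, 1 on each strand. The match began 27 bases before the start site in Orc1, 138 in Cdc6, 153 in Mcm5, 110 in Mcm6, 165 in Mcm7 and 138 in Pola1. The 16 genes with a match had a median range among controls of 3.44-fold and the 21 without a match 3.82-fold, a difference that was not tested. A match is a description of letters in a window and says nothing of binding in these lungs.

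Helicase activation genes were low in level and had the widest median range among controls of the 7 roles, 5.22-fold. Mcm10, which helps to start the helicase and had the highest mean of them over the 8 libraries, was at 24.996, 19.6, 4.06 and 17.5 CPM in control 1 to 4 and at 41.2, 12.5, 5.45 and 19.7 CPM in TO 1 to 4. TO 1, at 12 pairs, held the highest value, control 3 and TO 3 the lowest, and the groups overlapped. Without TO 1, over the 7 deep libraries, the mean was 14.8 CPM for Mcm10 and 17.9 CPM for Cdc45, so Cdc45 was then first. The means were 16.6 ± 8.90 CPM in controls and 19.7 ± 15.5 CPM in TO (SD, n = 4 each), while the log2 fold change from edgeR was -0.15 (SE 0.58, edgeR adjusted p = 0.99999), so the 2 differ in direction. In the 6 libraries it was -0.71 (SE 0.39, edgeR adjusted p = 0.907).

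Cdc45, the partner that completes the active helicase, was at 23.9, 31.6, 3.19 and 16.9 CPM in the controls and at 13.7, 19.1, 9.59 and 21.04 CPM in TO, a 9.92-fold range among controls. Gins3, a GINS subunit, had the highest log2 fold change of the 44 genes. It was at 8.01, 8.94, 3.86 and 9.54 CPM in the controls and at 20.6, 10.4, 5.33 and 8.10 CPM in TO. The value of TO 1 came from 6 pairs, and the other 3 TO lungs overlapped the controls. Between groups, the log2 fold change was 0.23 (SE 0.38, edgeR adjusted p = 0.99999) with 8 libraries and -0.15 (SE 0.27, edgeR adjusted p = 0.970) with 6. Gins1 lay between 3.02 and 12.8 CPM and Gins2 between 2.01 and 10.8 CPM over the 8 lungs.

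The polymerases and primase copy the strands. Pold1, the catalytic subunit of polymerase delta and the most abundant of the 7 (chr7:44532746-44548849, minus strand), was at 59.2, 66.9, 20.3 and 56.2 CPM in control 1 to 4 and at 58.4, 39.4, 35.4 and 50.1 CPM in TO 1 to 4. TO 2, TO 3 and TO 4 were below controls 1, 2 and 4, while control 3 was the lowest of all and TO 1 lay among the higher controls. The means were 50.7 ± 20.7 and 45.8 ± 10.4 CPM (SD, n = 4 each) and the log2 fold change was -0.21 (SE 0.32, edgeR adjusted p = 0.99999). In the 6 libraries it was -0.54 (SE 0.16, edgeR adjusted p = 0.907), the smallest unadjusted p of the 44 genes (0.00666, edgeR), and it did not pass the threshold.

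Pole, the catalytic subunit of the leading-strand polymerase epsilon, was at 43.4, 38.8, 7.79 and 32.3 CPM in the controls and at 27.5, 23.2, 11.7 and 38.1 CPM in TO. Pola1, which carries the polymerase that extends the primers, was at 45.7, 38.4, 10.3 and 32.4 CPM in the controls and at 41.2, 33.9, 19.6 and 41.0 CPM in TO. Control 3 was the lowest of all lungs and TO 3 the next in both. Prim2, the large primase subunit, stood apart from these with 17.5 to 26.8 CPM in controls and 18.3 to 37.8 CPM in TO, a range among controls of 1.53-fold. Its partner Prim1, the catalytic subunit, had a 3.82-fold range among controls, from 9.70 to 37.0 CPM.

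The clamp and its loader hold the polymerases on DNA. Pcna, the ring-shaped clamp (chr2:132249162-132253314, minus strand), was at 126, 137, 37.1 and 93.5 CPM in control 1 to 4 and at 175, 107, 61.6 and 113 CPM in TO 1 to 4. Control 3 and TO 3 were again the lowest and the groups overlapped. The means were 98.2 ± 44.7 and 114 ± 46.6 CPM (SD, n = 4 each). The log2 fold change was 0.13 (SE 0.38, edgeR adjusted p = 0.99999) with 8 libraries and -0.33 (SE 0.23, edgeR adjusted p = 0.909) with 6.

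The 9 genes of this role had a median range among controls of 2.54-fold, from 1.88-fold for Rfc2 to 5.87-fold for Fen1, and its difference from the other roles was not tested. Rfc2, a loader subunit, was at 65.2, 73.6, 39.2 and 59.7 CPM in the controls and at 75.5, 63.9, 45.5 and 62.0 CPM in TO. Rpa1, the large subunit of the single-strand binding protein, was at 105, 105, 49.7 and 97.5 CPM in the controls and at 72.1, 95.4, 55.2 and 101 CPM in TO. Lig1, the ligase that seals lagging-strand pieces, was at 89.9, 88.9, 35.9 and 74.7 CPM in the controls and at 72.1, 64.5, 31.7 and 77.8 CPM in TO, and was one of the genes with TO 3 below control 3.

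Fen1, the nuclease that trims those pieces (chr19:10199132-10204169, minus strand), had the lowest fold change of the 44 genes and the fewest reads. It had 18, 15, 4 and 17 pairs in control 1 to 4 and 0, 7, 0 and 16 in TO 1 to 4. That made 0.788, 0.488, 0.134 and 0.687 CPM in the controls and 0, 0.202, 0 and 0.455 CPM in TO, where the 0 of TO 3 allowed up to 0.124 CPM and that of TO 1 up to 10.3 CPM. Between groups, the log2 fold change was -1.24 (SE 1.08, edgeR adjusted p = 0.99999) with 8 libraries and -1.52 (SE 1.11, edgeR adjusted p = 0.910) with 6. Of its exonic bases 84.2% were also exonic in another gene, mostly Gm10143. Reads on bases of 2 genes are not counted for either when counting ignores strand, so the level of Fen1 is a lower limit and its fold change rests on the remaining bases. The share was 67.3% for Gins2 and 52.5% for Chaf1a, and 14 of the 44 genes had more than 5% of their exonic bases shared.

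Nucleotide supply genes make the building blocks. Rrm1, the large subunit of ribonucleotide reductase (chr7:102441695-102469771, plus strand), was at 179, 127, 64.0 and 133 CPM in control 1 to 4 and at 196, 123, 75.6 and 152 CPM in TO 1 to 4. The log2 fold change was 0.06 (SE 0.32, edgeR adjusted p = 0.99999) with 8 libraries and -0.32 (SE 0.24, edgeR adjusted p = 0.911) with 6. Rrm2, the small subunit whose amount follows S phase, was at 73.6, 86.3, 13.5 and 57.3 CPM in the controls and at 141, 50.8, 17.1 and 72.5 CPM in TO. The range among controls was 2.80-fold for Rrm1 and 6.40-fold for Rrm2, in both cases with control 3 at the bottom. Tyms, which makes thymidylate, had 50.6, 48.6, 9.26 and 31.2 CPM in the controls and 54.9, 28.3, 11.9 and 37.9 CPM in TO.

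The regulators of S phase entry held the one clear departure from the common order of lungs. E2f2, a transcription factor of the E2F family (chr4:136172394-136196057, plus strand), was at 66.6, 71.7, 76.7 and 60.0 CPM in control 1 to 4 and at 79.0, 81.0, 90.3 and 52.4 CPM in TO 1 to 4. Control 3 and TO 3 were the highest of their groups here, the reverse of the other genes, and the range among controls was 1.28-fold. Between groups, the log2 fold change was 0.13 (SE 0.18, edgeR adjusted p = 0.99999) with 8 libraries and 0.17 (SE 0.18, edgeR adjusted p = 0.940) with 6. E2f2 is also known for its high level in erythroid precursors. The mean log2 CPM of 13 erythroid markers was 4.17, 4.29, 5.08 and 4.29 in control 1 to 4 and 1.38, 4.32, 4.43 and 3.69 in TO 1 to 4, and the part of red cell precursors in the level of E2f2 was not tested.

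Ccne1, cyclin E1, which starts S phase with its kinase, lay at the other extreme with a 22.0-fold range among controls. It was at 13.1, 13.3, 0.604 and 5.86 CPM in the controls and at 0, 8.33, 3.76 and 10.5 CPM in TO, where the 0 of TO 1 allowed up to 10.3 CPM. Ccne2, the second cyclin E, was at 26.1, 15.9, 7.32 and 19.8 CPM in the controls and at 44.6, 16.4, 9.46 and 23.9 CPM in TO. E2f1 was at 38.2, 37.6, 17.6 and 30.9 CPM in the controls and at 72.1, 24.7, 18.0 and 37.2 CPM in TO. All 3 genes were lowest in control 3 among controls.

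Histone and chromatin maintenance genes rebuild chromatin behind the fork. Dnmt1, the methyltransferase that copies methylation onto the new strand (chr9:20907209-20959888, minus strand), had the highest mean CPM of the 44 genes. It was at 194, 189, 65.0 and 168 CPM in control 1 to 4 and at 203, 147, 102 and 175 CPM in TO 1 to 4, again lowest in control 3 and TO 3. The means were 154 ± 60.6 and 157 ± 42.9 CPM (SD, n = 4 each). The log2 fold change, of the opposite sign to these means, was -0.01 (SE 0.31, 95% interval -0.70 to 0.67, edgeR adjusted p = 0.99999) with 8 libraries and -0.38 (SE 0.18, edgeR adjusted p = 0.907) with 6.

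Uhrf1, which brings Dnmt1 to newly copied DNA, varied more, with 107, 101, 14.8 and 72.9 CPM in the controls and 196, 61.2, 29.1 and 92.4 CPM in TO. Chaf1b, a subunit of the chromatin assembly factor that loads histones at the fork, was at 19.6, 19.1, 1.64 and 14.5 CPM in the controls and at 41.2, 12.8, 7.48 and 16.3 CPM in TO, an 11.9-fold range among controls. Slbp, which binds histone mRNA, had the smallest range among controls of the 5, 2.22-fold, from 31.6 to 69.9 CPM.

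**Figure D3:**
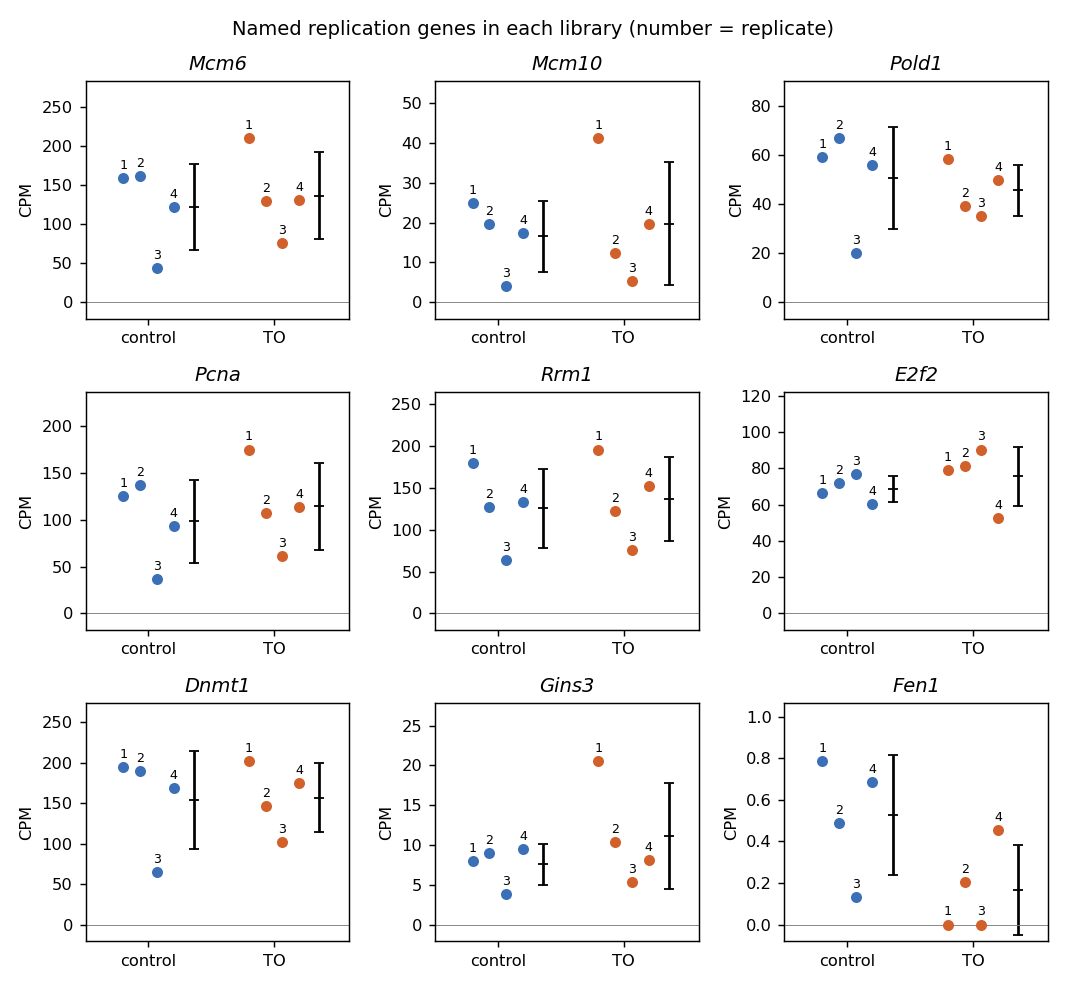
CPM (y axis) of the gene of each role with the highest mean over the 8 libraries and of the genes with the highest (Gins3) and lowest (Fen1) log2 fold change, in each library; points carry the replicate number, bars are the mean ± SD of 4 libraries, and TO 1 is the shallow library. Replicate 3 is the lowest control for every gene but E2f2, and the 2 groups overlap in all 9 panels.

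Levels between genes were compared per length, as the median CPM of the 4 controls per kb of exon. Pcna was the highest with 45.6 CPM per kb, followed by Mcm6 with 30.1, Mcm3 with 25.2, Dnmt1 with 24.2 and Mcm4 with 24.0. Dnmt1, first by CPM, was thus below the clamp once its length was taken into account. Within the MCM ring, whose subunits are used in equal number, the level per kb ran from 11.6 for Mcm2 to 30.1 for Mcm6. Orc1 and Fen1 were at the low end with 1.25 and 0.243 CPM per kb, but bases shared with another gene, which give no counts here, are part of these lengths. With such bases left out Orc1 was at 1.40 and Fen1 at 1.54 CPM per kb, so their order turned. Lengths are of all annotated exons of a gene together, so a gene with long rare exons is placed too low. For all 43 neighbouring pairs in the order without shared bases, the ranges over the 4 controls overlapped. The genes of a pair were not compared within each library. Most genes were lowest in the same control, which widens their ranges together. The overlap thus does not say whether an order held in each lung.

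**Figure D4:**
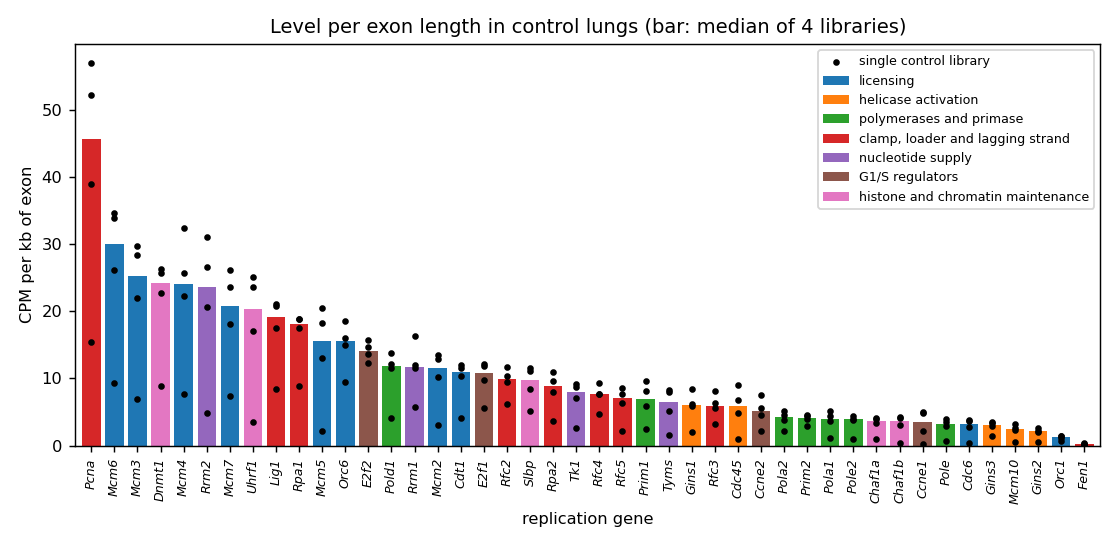
Level per exon length of each replication gene (x axis, ordered) in control lungs, in CPM per kb of exon (y axis); bars are the median of 4 control libraries, coloured by role, and dots are the single libraries. Pcna leads with 45.6 CPM per kb, the low bars of Fen1, Gins2 and Chaf1a include bases shared with another gene that give no counts, and for most genes the lowest dot, control 3, is well apart from the other 3.

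Other genes of the same process were mostly lowest in control 3 as well. Of 50 further replication genes, listed by name, 49 were tested and 0 were called. Control 3 was the lowest control for 47 of the 49 and TO 3 the lowest of TO 2 to 4 for 42, and the median log2 fold change was -0.11 with 8 libraries and -0.37 with 6. Topbp1, which helps to fire origins and was the most abundant, was at 165, 141, 77.4 and 126 CPM in control 1 to 4 and at 185, 124, 97.1 and 133 CPM in TO 1 to 4. Mcmbp, a binding partner of the MCM ring, was nearly level at 85.2 to 100 CPM over the 8 lungs.

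Mitosis genes were also lowest in control 3 and TO 3. All 25 had their lowest control in control 3, all 25 had a fold change below 0 both with 8 and with 6 libraries, and 0 were called. The median log2 fold change was -0.34 with 8 libraries and -0.76 with 6, against -0.06 and -0.43 for the 44 replication genes. Their mean log2 CPM was 6.53, 6.18, 4.69 and 6.31 in control 1 to 4 and 6.30, 5.51, 4.47 and 6.30 in TO 1 to 4. Control 3 thus lay above TO 3 for mitosis genes and below it for the 44 replication genes. The replication mean minus the mitosis mean was -1.26, -0.98, -1.27 and -1.39 log2 units in the controls and -1.24, -0.74, -0.42 and -1.26 in TO, so that TO 2 and TO 3 had more replication mRNA relative to mitosis mRNA than the other 6 lungs. This difference was noticed in the data and was not tested.

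Genes of quiescence and checkpoints were mixed, in a list that also held Ccnd1, Ccnd2, Ccnd3, Cdk4 and Cdk6, which drive cells through G1. The mean log2 CPM of 17 such genes lay between 6.17 and 6.29 in all 8 lungs, while control 3 was the lowest control for 10 of the 17, these 5 among them, and the highest for the other 7, and TO 3 the lowest of TO 2 to 4 for 6. Cdkn1b, an inhibitor of cyclin E kinase, was at 120, 113, 275 and 111 CPM in control 1 to 4 and at 134, 142, 150 and 114 CPM in TO 1 to 4. Cdkn1a, the p53-induced inhibitor, was at 19.1, 16.5, 53.3 and 20.5 CPM in the controls and at 44.6, 28.0, 39.0 and 29.8 CPM in TO. Both inhibitors were highest among controls in control 3. Other inhibitors were lowest there, Cdkn1c at 224, 211, 151 and 166 CPM in control 1 to 4 and Cdkn2c at 38.4, 35.4, 8.79 and 32.4 CPM. These 4 genes were picked after their values were seen.

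**Figure D5:**
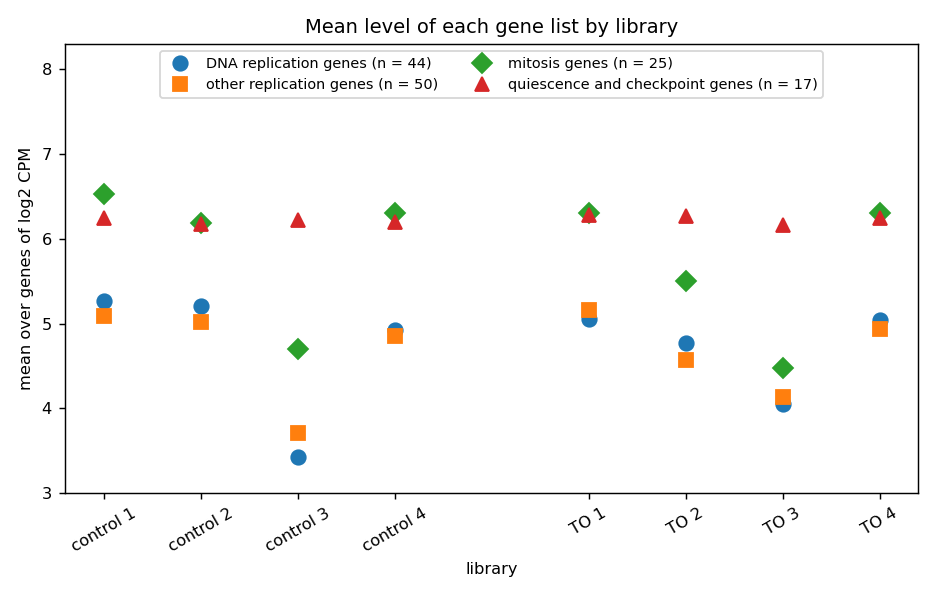
Mean over genes of log2 CPM (y axis) in each library (x axis) for the 44 replication genes, 50 other replication genes, 25 mitosis genes and 17 quiescence and checkpoint genes. The first 3 lists are lowest in control 3 and TO 3, while the mean of the quiescence list, whose genes went both ways, stays between 6.17 and 6.29.

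Markers of other cells and tissues also differed between lungs. The 10 thymocyte markers summed to 422 CPM in TO 1 and 23.8 CPM in TO 3, against 2.35 to 5.14 CPM in the other 6 lungs. Rag1, the most abundant of them, was at 161 CPM in TO 1 and 9.46 CPM in TO 3, and 9 of the 10 were detected in TO 1, with Dntt at 0. The summed CPM of the 44 replication genes was highest in TO 1, at 2798 CPM from 815 pairs, against 827 to 2536 CPM in the other lungs. By mean log2 CPM TO 1 was not the highest, at 5.06 against 5.27 in control 1 and 5.21 in control 2. TO 3, next to TO 1 in thymocyte markers, had a replication sum of 1179 CPM. Dividing thymocytes hold replication mRNA, and the part of thymus in the values of TO 1 was not tested.

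In control 3, where replication genes were lowest, the list of erythroid markers had its highest level of the 8 lungs. The 13 erythroid markers found summed to 5106 CPM there, with Hbb-bs the most abundant, against 2208 to 4897 CPM elsewhere. Their mean log2 CPM was 5.08 in control 3, against 3.69 to 4.43 in the other deep lungs and 1.38 in the shallow TO 1. The 8 cardiomyocyte markers, led by Myh6, summed to 4711 CPM in control 3 and 3463 CPM in TO 3, but also to 3760 CPM in control 4 and 5163 CPM in TO 4, with 423 to 6496 CPM over the 8 lungs. The 8 hepatocyte markers, led by Alb, summed to 904 CPM in control 1 and 380 CPM in TO 4, where replication genes were high, and to 2.80 to 110 CPM in the other 6. Reads that mapped outside annotated genes were 14.9% of all read pairs in TO 3 and 13.9% in control 3, against 9.64% to 13.2% in the other 6, with 95% Wilson intervals at most 0.195 percentage points wide. The mitochondrial share of read pairs on genes was lowest in the same 2 lungs, 1.11% in control 3 and 1.22% in TO 3, against 1.40% to 2.33% in the other 6. The part of any of these in the replication values was not tested.

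Markers of lung were present in all 8 libraries. The 6 alveolar type 2 markers, led by Sftpc, summed to 11893 CPM in control 3 and 15654 CPM in TO 3, within the 6486 to 19832 CPM of the 8 lungs. The mean log2 CPM was 7.497 to 8.27 over the 8 lungs for 5 endothelial markers, 9.21 to 9.59 for 5 mesenchymal markers, 5.56 to 7.15 for 5 alveolar type 1 markers, 3.51 to 6.33 for 6 airway epithelial markers and 3.90 to 4.86 for 5 macrophage markers. Control 3 had the highest mesenchymal mean, 9.59, and an endothelial mean of 8.26, next to 8.27 in TO 2.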

How the data were processed

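RNA from whole lungs was made into NexteraXT libraries and sequenced as 150-bp pairs by the authors, who used STAR with the GRCm38 genome and deposited counts of read pairs per gene for 8 libraries. The submitters' processing notes name STAR, DESeq2 and mm10, with no versions. The unstranded column was used, so reads shared with an overlapping or antisense gene cannot be assigned. Rows that name no gene held 23.1% to 27.1% of a library and were left out. Gene IDs were matched to GENCODE M21 symbols (54487 identical, 55144 of 55385 without the version suffix); of all listed symbols 1, the erythroid marker Ahsp, was not found. No 2 libraries agreed within sampling noise.

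Genes with at least 5 reads in at least 3 libraries were tested, 22545 with all 8. edgeR 4.0.16 (TMM scaling, quasi-likelihood test, no covariates, R 4.3.3) gave log2 fold changes (TO minus control), standard errors taken from the fold change and its F statistic, and Benjamini-Hochberg adjusted p over all genes tested, called under 0.1, the threshold of the study. Log2 CPM used a prior count of 2. Alternatives were DESeq2 1.42.0, limma 3.58.1 (voom), 2 other scalings, 2 filters, 3 other sets of libraries, replicate blocks and each library left out in turn. The procedure was also run on simulated counts in which genes varied independently. That run does not cover a lung that is low in many genes at once. Fold changes are given for the most abundant gene of each role, for the highest and lowest of the 44, and for any called; other genes by their levels. The members and lists were chosen with earlier results of these data known, so no list was tested. Promoters came from RefSeq (GRCm38.p6).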

Additional observations from a re-analysis of the deposited data

Results flagged for a closer look

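Each of the 44 genes, and their mean log2 CPM, was examined in each group of 4 libraries for a single library far from the rest, by the gap to its nearest neighbour over the range of the group. Of 90 such groups 1 passed Dixon's 95% critical value for 4 values. This was Rpa1 in controls, where control 3 had 49.7 CPM and the gap was 0.859 of the range. For the other genes in which control 3 was the lowest control, and for the mean over the 44 genes, the gap stayed under that value. Chance alone passes about 1 in 20 independent groups. These groups were the same libraries read through genes that mostly varied together, so that share does not apply to them. With 4 values a group, a gap under the critical value does not show that control 3 was like the rest.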

How the results depend on the processing

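The 0 calls among the 44 genes held under every alternative run, with 0 to 4 of them at an unadjusted p under 0.05. For all genes, edgeR called 0 under the other scalings, filters and sets of libraries and with each library left out (range 0 to 0), limma-voom called 0 and DESeq2 7. Scalings moved the median of all genes by less than 0.1 log2 units. Adjusted p values of the 44 were 0.880 or more throughout. The number of the 44 lower in TO, 30 with all 8 libraries, ranged from 10 to 42 with 1 library left out and the median log2 fold change from -0.32 to 0.12; without TO 1 they were 41 and -0.16, and without TO 4 37 and -0.19. Other tools, scalings and filters gave 20 to 30, with 35 genes tested instead of 44 where 5 reads were asked in every library. Controls 2 to 4 against TO 2 to 4 gave 23 lower and a median of -0.0045. A fit with the replicate number as a block called 3 genes with all 8 libraries (Myh3, Myh8 and Lcn2) and 3 with controls 2 to 4 and TO 2 to 4 (Lcn2, Myh3 and Ttr), none of the 44; 10 and 11 of the 44 were lower, with medians of 0.09 and 0.09. Same-numbered libraries had correlations of deviations of 0.05, 0.13, 0.16 and 0.07. As not all were over 0.1, the numbers were not taken as pairs. Even so, 3 of 4 controls correlated best with the TO library of their number, and 3 of 4 TO libraries with the control of theirs. Same-numbered libraries also share digits in the names of the deposited files, and no label says what these mark. Among genes with a fold change given, the sign turned in the 6 libraries for Mcm6 (-0.40), Pcna (-0.33), Rrm1 (-0.32) and Gins3 (-0.15), with limma-voom for Rrm1 (-0.022), with DESeq2 for Mcm10 (0.17) and Dnmt1 (0.025), and with the block for Mcm10 (0.087) and Dnmt1 (0.10 with 8 libraries, 0.11 with controls 2 to 4 and TO 2 to 4). Dnmt1, at -0.01 with all 8, was also 0.0092 in controls 2 to 4 and TO 2 to 4, 0.012 with RLE and 0.0089 with upper-quartile scaling, and 0.0040 with the filter of 5 reads in every library. With 1 library left out, Mcm6 ranged from -0.19 to 0.32, Mcm10 from -0.51 to 0.25, Pcna from -0.14 to 0.37, Rrm1 from -0.16 to 0.29 and Dnmt1 from -0.26 to 0.17, and, without a turn of sign, Fen1 from -2.26 to -0.70, Gins3 from 0.00022 to 0.49, Pold1 from -0.48 to -0.048 and E2f2 from 0.014 to 0.29. None of these fold changes was called, and the cause was not tested. TO 1, with 270078 pairs, limits every value that includes it.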
